A study of Mus musculus with 29 samples.

Results

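The brightness of individual transcripts in the hypothalamus of control mice was read from the control channel of 12 arrays, out of the 29 arrays of the series. The control animals were 8-week-old female Balb/c mice that received a subcutaneous injection of 100 µl PBS and were killed after 18, 72 or 192 h. On every array their RNA was hybridised together with RNA of mice injected with 4T-1 cells, a mouse mammary carcinoma line, in the other dye. Only the channel taken as PBS was used, and no ratio to the tumour channel enters any value. The files used here name the channels A and B but not their dyes. They were taken as Cy3 and Cy5 in the order of the labels; were that order the other way round, every value below would be that of the tumour channel and the dye differences would change sign. The 12 arrays were those that carried total RNA on 1 print of in-house spotted oligonucleotides. They form 6 replicates, which the series describes as biological: replicates 3, 4 and 5 at 18 h, replicates 3 and 4 at 72 h and replicate 4 at 192 h. Each replicate was hybridised once with the PBS RNA in Cy3 and once in Cy5, and each array was scanned 3 times. Whether a replicate was 1 animal or a pool is not given in the labels.

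Of 10080 spots, 9066 carry a single gene symbol and represent 8726 genes. Within each scan the named spots were ordered by their PBS intensity and given a percentile from 0 (dimmest) to 100 (brightest). Percentiles were averaged over 3 scans, then over the 2 arrays of a replicate, and are given as mean ± SD over 6 replicates (n = 6), with a gene taken at its brightest spot. A percentile is a place in the order of spots, not a number of transcripts, because a spot's brightness also depends on its oligonucleotide and on how much of it was printed. Comparisons between genes are therefore descriptions and carry no test. In whole tissue, fewer cells of a type and less RNA per cell cannot be told apart.

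The arrays were of unequal quality. Rank correlations between scans of one array were 0.739 to 0.952 on 9 arrays but 0.366 to 0.583 on 3, namely the Cy3 arrays of 18 h replicates 4 and 5 and of 72 h replicate 3. A spot was called detected where its background-corrected intensity was above 0 in at least 2 of 3 scans, and that share ran from 11.4% of named spots (18 h replicate 5, PBS in Cy5) to 89.97% (18 h replicate 4, PBS in Cy3). Spots that are saturated in part made up 0.21% to 5.75%. Rank correlations between replicates across spots ran from 0.134 to 0.721 with a median of 0.337 over 15 pairs, and spots share print and oligonucleotide in all of them. The lowest of these pairs was 18 h replicate 4 with 18 h replicate 5.

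The hypothalamus is the region at the base of the forebrain that controls hormone release, feeding, body temperature and sleep. Its neurosecretory neurons make peptide hormones from larger precursors, pack them into dense-core granules and release them into the blood of the pituitary stalk or of the posterior pituitary. Around these neurons lie astrocytes, myelinating oligodendrocytes, microglia and vessels, so whole-tissue RNA mixes transcripts of all of them.

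Oxytocin was the brightest of the hypothalamic hormone genes. Oxt, the precursor of oxytocin made in the paraventricular and supraoptic nuclei, lay between percentile 85.8 and 98.6 in the 6 replicates, with a median of 97.7 and a mean of 95.8 ± 5.0. It was detected on all 12 arrays, as were 259 of the 8726 genes (2.97%). The other 5 replicates lay close together above 72 h replicate 3. Sst, the precursor of somatostatin, which inhibits growth hormone release, ran from 54.6 to 97.3 with a median of 90.5. Avp, the precursor of vasopressin, which acts on water balance, ran from 43.1 to 97.4 with a median of 77.5. Both were lowest in 18 h replicate 5 and next lowest in 72 h replicate 3, and both were highest in the 192 h replicate. Without the 3 arrays whose scans agreed least, the mean was 84.6 for Sst and 64.1 for Avp.

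The list of hypothalamic hormones and monoamine synthesis held 14 genes, of which 9 were named on the print. Their median percentile was 68.5, against 45.7 over all named genes, and 9 of 9 lay above that overall median. In the top decile of genes, which begins at percentile 73.4 and holds 10% of all genes by construction, there were 3 of the 9: Oxt, Sst and Avp. Hdc, histidine decarboxylase of the histamine neurons of the tuberomammillary nucleus, lay at 69.1 ± 12.7. The dimmest members were Ghrh, growth hormone releasing hormone, at 49.7 ± 18.7 and Th, the rate-limiting enzyme of dopamine synthesis, at 49.0 ± 11.9. Genes just inside and just outside the top decile were BC005624 at 73.410 and Vcp at 73.409, so the border separates nothing by itself.

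Among feeding and other neuropeptides, 16 of 26 listed genes were measured, their median was 60.0, and 1 of 16 was in the top decile. That gene was Ucn, urocortin, a peptide related to corticotropin releasing hormone, which ran from 84.1 to 97.6 with a median of 94.9 and a mean of 93.3 ± 4.9. Cartpt, the precursor of the appetite-suppressing CART peptide, lay at 72.4 ± 18.9. Adcyap1, the precursor of PACAP, and Tac1, the precursor of substance P, lay at 71.7 ± 18.0 and 71.7 ± 17.0. These 3 genes scattered across replicates much more than Ucn did. The dimmest were Prok2 at 33.6 ± 8.6 and Vip at 31.1 ± 11.5, both signalling peptides of the suprachiasmatic clock. Vip was detected on 5 of 12 arrays.

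The genes that process and store peptides followed a similar order. Secretory granule genes had a median of 69.3, and 3 of 10 were in the top decile. Scg2, secretogranin II of the granule matrix, ran from 87.3 to 99.5 with a median of 95.3. Cpe, the carboxypeptidase that trims peptide precursors, ran from 64.5 to 99.7 with a median of 93.5. Pcsk1n, which encodes the proprotein convertase inhibitor proSAAS, was at 99.6 or above in 4 replicates, at 82.0 in 18 h replicate 5 and at 36.2 in 18 h replicate 4. Pam, the enzyme that amidates peptides, was dim at 33.1 ± 12.1. Receptors for hormones and peptides had a median of 46.0, close to that of all genes, and 3 of 16 in the top decile. Npy2r, a neuropeptide Y receptor, ran from 77.9 to 98.6 with a median of 91.7. Galr1, a galanin receptor, lay at 82.1 ± 15.97 and Insr, the insulin receptor, at 74.0 ± 17.2. At the other end were Esr2, estrogen receptor beta, at 35.2 ± 16.7 and Sstr2, a somatostatin receptor, at 30.9 ± 12.4.

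Transcription factors that pattern hypothalamic nuclei were not bright. Of 13 measured, 0 were in the top decile and 4 lay above the overall median, with a list median of 43.9. The brightest were Nkx2-2 at 59.0 ± 17.0, Foxb1 at 53.9 ± 13.3, Vax1 at 51.5 ± 21.8 and Sim1 at 47.9 ± 23.5, and the dimmest were Hmx3 at 32.7 ± 16.5 and Dlx1 at 28.9 ± 14.0. The genes taken as markers of the labelled tissue were Avp, Oxt, Pmch, Hcrt, Nkx2-1, Sim1 and Otp. Of these, only Oxt and Avp were in the top decile. The peptide genes Pmch and Hcrt lay at 66.0 ± 26.4 and 65.4 ± 22.2. The transcription factors Otp and Nkx2-1 lay at 43.9 ± 3.8 and 42.1 ± 11.2.

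**Figure D1:**
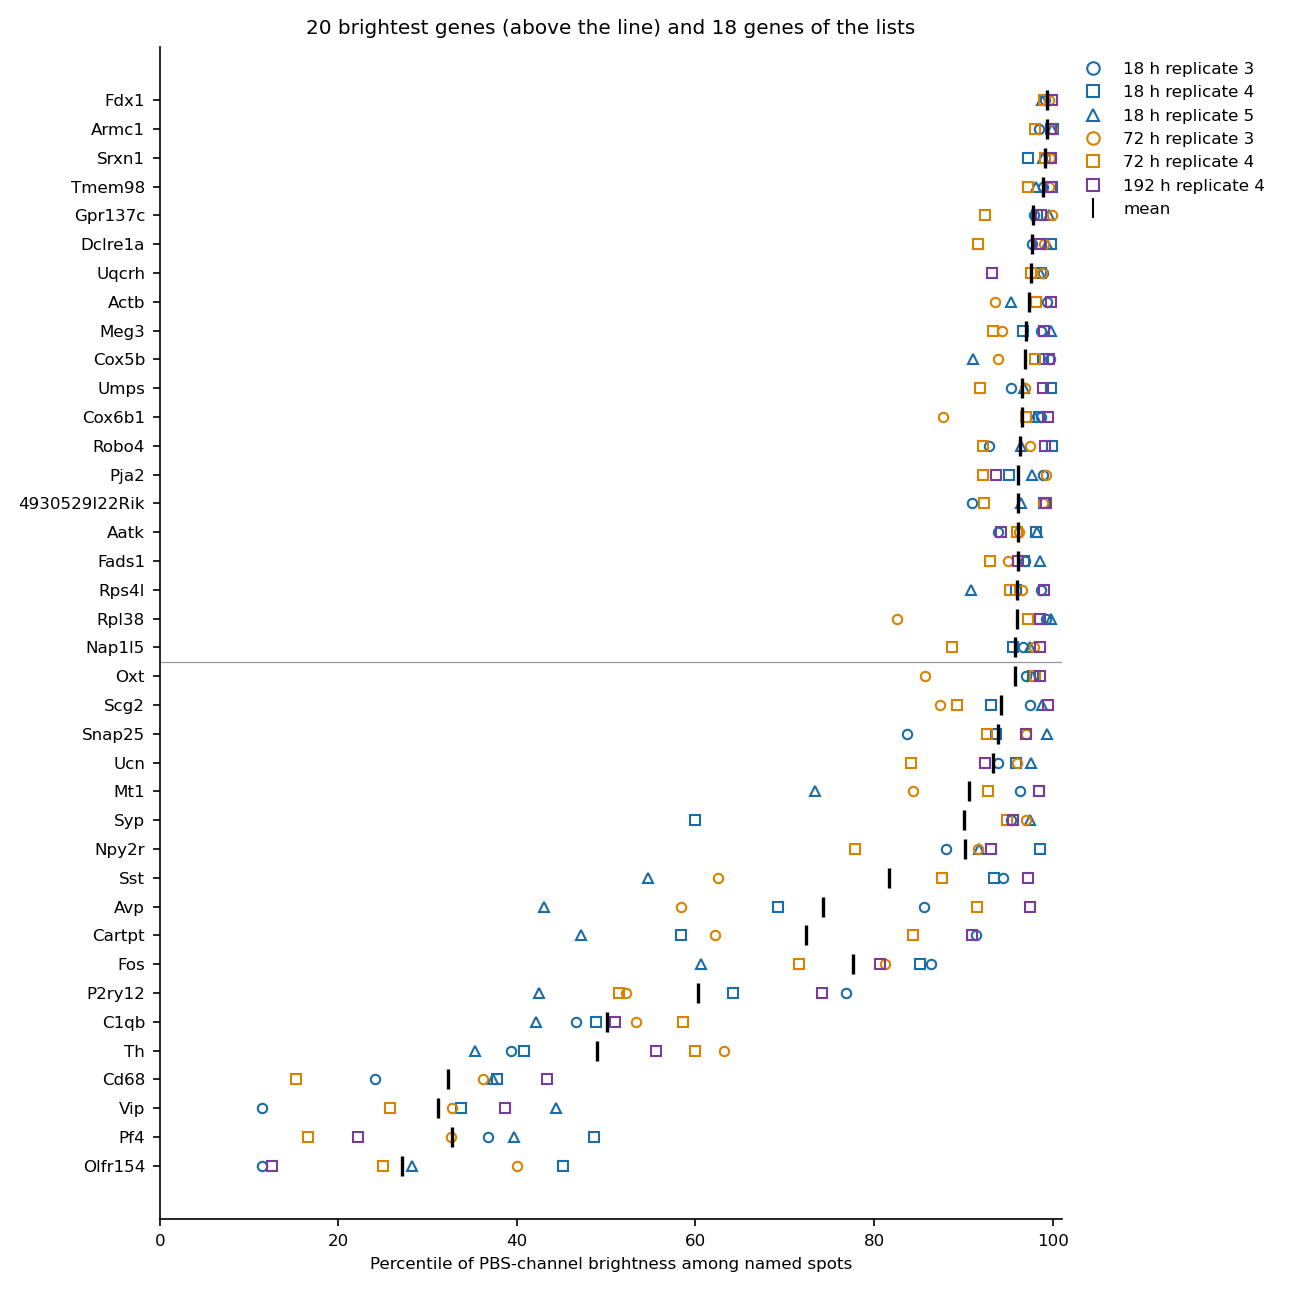
Percentile of PBS-channel brightness (x axis, 0 to 100) of 38 genes (y axis) in each of 6 replicates, with open symbols coloured by time and shaped by replicate number and a black bar at the mean. The 20 genes above the line keep within a narrow range near the top, while Sst, Avp, Syp and Cartpt spread widely and Vip, Pf4 and Olfr154 lie below percentile 50 in every replicate.

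Neuronal and synaptic genes were bright as groups. Of 20 neuronal genes measured, 18 lay above the overall median and 9 were in the top decile, with a list median of 69.3. Snap25, a plasma membrane SNARE protein of transmitter release, ran from 83.7 to 99.4 with a median of 95.3. Syp, synaptophysin of the synaptic vesicle membrane, lay between 94.9 and 97.5 in 5 replicates and at 60.0 in 18 h replicate 4. Syn2, a vesicle-tethering synapsin, lay at 87.4 ± 12.3 and Uchl1, a neuronal ubiquitin hydrolase, at 81.6 ± 21.7. The dimmest neuronal genes were Gad1, a GABA-synthesising enzyme, at 41.1 ± 27.6 and Syt1, the calcium sensor of release, at 34.0 ± 15.9. Gad1 reached 92.6 in 18 h replicate 3 and stayed at or below 45.6 in the other 5.

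The list of synaptic vesicle and release genes shares members with the neuronal list, had a median of 73.2 and held 9 of 18 in the top decile. The brighter spot of Napb, a SNAP protein that helps take SNARE complexes apart, ran from 83.3 to 98.0 with a median of 95.5. Its dimmer spot lay at a mean of 46.5. Syt4, a synaptotagmin, ran from 69.1 to 98.5 with a median of 90.9. Nsf, the ATPase that acts with Napb, was among the dimmest at 25.7 ± 7.4, below Rab3b at 26.9 ± 10.4. The list named for calmodulin, kinase and G protein signalling held kinase, protein phosphatase and G protein genes but no calmodulin gene. Its genes had a median of 55.2 with 11 of 70 in the top decile. They were led by Prkar1b, a regulatory subunit of protein kinase A, at 92.5 ± 14.8 and Gnao1, the alpha subunit of the brain G protein Go, at 88.5 ± 12.5. The dimmest of them were Gnat2, a cone photoreceptor transducin, at 26.5 ± 12.05 and Gnb2 at 25.5 ± 10.01.

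Receptors and channels of neurons lay near the middle of the order. GABA and glutamate receptor genes had a median of 48.9 with 1 of 23 in the top decile. The list named for voltage-gated ion channels also holds Clcn, Kcnk, Kcnj and Kcnip genes. It had a median of 45.2 with 6 of 75, Clcn3 and Kcnip4 among them. Other neurotransmitter receptors had a median of 41.3 with 3 of 38. Single members stood far above their lists. Htr2c, the serotonin 2C receptor that acts in feeding, ran from 90.2 to 97.9 with a median of 96.0 and a mean of 95.4 ± 2.9. Cacna1i, a T-type calcium channel subunit, lay at 93.5 ± 5.3. Gabra4, a GABA-A receptor subunit, lay at 75.3 ± 14.3, whereas Gria3, an AMPA receptor subunit, was at 22.8 ± 8.6.

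Astrocyte genes had a median of 67.1, with 7 of 8 above the overall median and 3 of 8 in the top decile. Mt1, a metallothionein, ran from 73.4 to 98.5 with a median of 94.6. Ndrg2 lay at 87.3 ± 10.8, S100b at 84.9 ± 17.2 and Slc1a3, the glutamate transporter GLAST, at 67.2 ± 25.5, while Mt3 lay at 29.0 ± 12.9. On the other print, described further on, the astrocyte median was 93.7. Oligodendrocyte and myelin genes had a median of 53.5 with 0 of 8 in the top decile, but on the other print a median of 83.4 with 2 of 8, and on a poly(A) array of 192 h a median of 84.7. That poly(A) array was printed at the same positions as the 12 arrays. On a poly(A) array of 72 h, of the other print, the oligodendrocyte median was 44.9, against 44.0 over all named genes. The place of the oligodendrocyte list thus differed between sets of arrays, which differ in RNA sample as well as in print. Cldn11, a tight junction protein of myelin, lay at 70.1 ± 23.9, Mag, a myelin glycoprotein, at 70.1 ± 16.6 and Mal at 68.1 ± 23.4. Olig1 and Ugt8a, a transcription factor and a lipid enzyme of this lineage, were dim at 29.7 ± 13.8 and 29.6 ± 14.4.

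Microglia and macrophage genes had a median of 41.3, below that of all genes, with 0 of 9 in the top decile. P2ry12, a receptor of resting microglia, was the brightest at 60.2 ± 13.7. C1qb, of complement component C1q, lay at 50.1 ± 5.7 and Cd68, a lysosomal protein of phagocytes, at 32.3 ± 10.5. Endothelial and mural genes had a median of 40.5, genes of ependyma, tanycytes and choroid plexus 40.4, and genes of meninges and fibroblasts 43.8. Of the genes on these 3 lists 0 of 7, 0 of 8 and 0 of 5 were in the top decile. Rgs5 of pericytes led the vascular list at 50.6 ± 23.9 and Rarres2 the ependymal list at 64.4 ± 14.2. Blood cell genes had the lowest median of the cell type lists, 37.7, from Cd79a at 47.9 ± 21.8 down to Pf4, a platelet chemokine, at 32.8 ± 11.7. Only 6 of 15 listed blood cell genes were measured, and Hba-a1, Hbb-b1 and Alas2 were not among them. Of the listed genes, 8 of 19 were measured for astrocytes, 8 of 18 for oligodendrocytes and 9 of 17 for microglia. For vessels they were 7 of 16, for ependyma 8 of 17 and for meninges 5 of 11.

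Tissues next to the hypothalamus could have been taken with it. Pituitary genes had a median of 41.9 over the 6 measured of 14 listed, with Lhb at 43.2 ± 9.0, Tshb at 38.2 ± 10.1 and Fshb, a gonadotropin subunit, at 33.8 ± 10.8. Gh, Prl and Cga were not among the measured genes. Pitx1, a pituitary transcription factor, lay at 83.2 ± 19.2 and was the 1 member in the top decile. On the other print the pituitary median was 67.3 against 42.6 over all named genes, with Tbx19 at 84.9, Lhb at 67.4, Tshb at 67.1 and Fshb at 28.7. Genes of neighbouring brain regions had a median of 48.4, and of 63.6 on the other print, with 3 of 18 in the top decile. They were led by Neurod6, a transcription factor of cortical and hippocampal pyramidal neurons, at 92.5 ± 4.4, Calb1 at 78.3 ± 19.3 and Tcf7l2, of thalamic neurons, at 78.0 ± 16.9. The part of pituitary and other brain tissue in the samples was not tested.

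Ribosomal protein and respiratory genes had the highest medians of the 38 lists on the 12 arrays. The order differed on the other print, where the ribosomal median was 92.5 and the respiratory median 83.6. Astrocyte genes lay above the ribosomal list there, at 93.7. Synaptic genes at 84.4, proteasome subunits at 84.2 and granule genes at 83.9 lay above the respiratory list. Ribosomal protein genes had a median of 87.3, and 28 of 36 were in the top decile against 10% of all genes. Their list median was 75.4 in the lowest replicate, 18 h replicate 5, and 98.5 in the highest, the 192 h replicate. Rpl38, of the large subunit, ran from 82.6 to 99.8 with a median of 98.5. Rps15 and Rps20, of the small subunit, lay at 95.4 ± 7.7 and 93.8 ± 8.1, both lowest in 72 h replicate 4. The dimmest members were Fau at 41.0 ± 29.6 and Rps19 at 38.5 ± 5.6. Ribosomal protein genes have many near-identical copies in the genome, and binding of their transcripts to these spots was not tested.

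Genes of oxidative phosphorylation, the mitochondrial production of ATP, had a median of 81.9 with 36 of 52 in the top decile. Uqcrh, a subunit of complex III, ran from 93.2 to 98.9 with a median of 98.7. Cox5b and Cox6b1, subunits of cytochrome c oxidase, lay at 96.9 ± 3.6 and 96.6 ± 4.4, and Atp5h of ATP synthase at 95.1 ± 3.9. The family was not uniform, since Atp5j2 lay at 29.7 ± 8.7 and Atp5mpl at 24.95 ± 11.9. Atp5mpl was above 0 on 2 of 12 arrays.

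Other cell-wide machinery lay between these families and the middle. Proteasome subunits had a median of 72.1 with 9 of 20 in the top decile, from Psmb6, a catalytic subunit, at 83.4 ± 13.01 to Psma4 at 28.5 ± 18.0. Glycolysis genes had a median of 67.6 with 3 of 8, led by Pgk1 at 92.2 ± 9.3, Ldhb at 84.2 ± 16.2 and Gapdh at 76.8 ± 25.05. Cytoskeletal genes had a median of 60.2 with 13 of 39, led by Actb, beta-actin, at 97.4 ± 2.4, Tmsb4x, an actin-sequestering thymosin, at 94.7 ± 7.4 and Cfl1, cofilin, at 91.7 ± 7.7. Chaperones had a median of 55.8 with 11 of 51 and translation factors 53.5 with 4 of 22. Hspb2, a small heat shock protein best known from muscle, led the chaperones at 94.4 ± 4.3, followed by Hsp90aa1 at 90.6 ± 11.5. Immediate early genes had a median of 49.6 and clock genes 54.1, with 1 of 14 and 1 of 13 in the top decile. Fos, which neurons induce within minutes of activation, lay at 77.6 ± 9.8 and Tef at 74.9 ± 18.1, whereas Per3 lay at 26.5 ± 4.9.

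**Figure D2:**
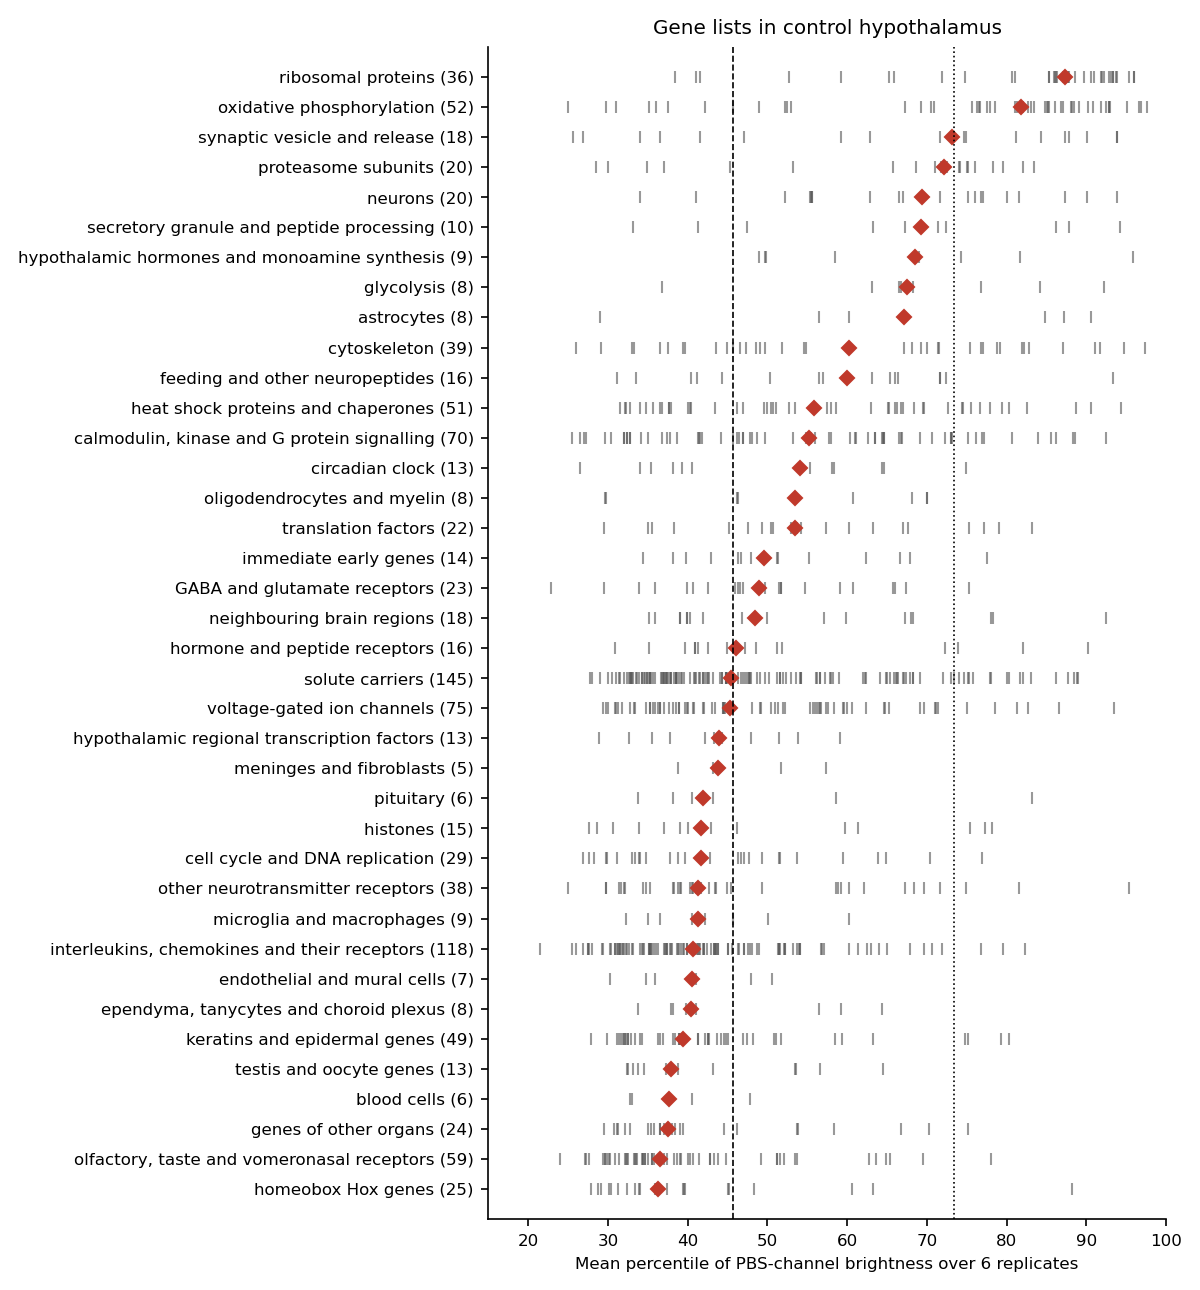
Mean percentile of PBS-channel brightness over 6 replicates (x axis) of every measured member (grey ticks) of 38 gene lists (y axis, number of members in parentheses), with list medians as red diamonds. The dashed line marks the median of all named genes, 45.7, and the dotted line the start of the top decile, 73.4. Ribosomal and respiratory genes crowd to the right, and Hox and olfactory receptor genes to the left.

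The 20 brightest genes among those detected on all 12 arrays with an SD under 10 points were a mixed group. At the top were Fdx1, a mitochondrial ferredoxin of steroid synthesis, at 99.4 ± 0.47, Armc1 at 99.4 ± 0.91, Srxn1, which repairs oxidised peroxiredoxins, at 99.1 ± 1.00 and Tmem98, a membrane protein, at 99.0 ± 1.04. Each of these 4 stayed at or above 97.2 in all 6 replicates, though the dimmer spot of Armc1 lay at a mean of 74.7. Gpr137c followed at 97.8 ± 2.75, Dclre1a, which repairs DNA crosslinks, at 97.7 ± 3.05, Uqcrh at 97.6 ± 2.22 and Actb at 97.4 ± 2.44. Meg3, an imprinted long noncoding RNA, lay at 97.0 ± 2.68 and Nap1l5, another imprinted gene, at 95.8 ± 3.63. Between them lay Cox5b, Umps of pyrimidine synthesis, Cox6b1, Robo4, Pja2, 4930529I22Rik, Aatk, Fads1, Rps4l and Rpl38, all from 96.0 to 96.9. The 4 genes at the very top do not belong to the ribosomal or respiratory chain families.

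Position on the print bore a weak relation to brightness. The 20 spots lay in 15 of 48 printing grids of 210 spots. Spots printed next to each other had a rank correlation of 0.160 over 8242 neighbouring pairs, and grid medians ran from 38.8 to 52.1. The part of position in the brightness of single spots was not tested.

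At the middle of the order, within 1 point of percentile 50, the steadiest genes were Irx2, a homeobox transcription factor, at 49.6 ± 4.1, Nudt11 at 50.3 ± 4.4, Psph of serine synthesis at 50.7 ± 4.5, 3930402G23Rik at 50.2 ± 5.2 and Prkch, a protein kinase C, at 49.0 ± 5.4. They were detected on 9, 9, 9, 9 and 10 of 12 arrays. The median SD of a gene over the 6 replicates was 13.8 points, and 16.4 in the top decile. Neighbours in the order therefore lie well within each other's spread.

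Families best known from other tissues or from development lay at the dim end. Lists of cell types found in brain tissue lay there too, with blood cells at 37.7, ependyma at 40.4, vessels at 40.5 and microglia at 41.3. Hox genes, which pattern the trunk and hindbrain of the embryo, had a median of 36.2 with 1 of 25 in the top decile. Olfactory, taste and vomeronasal receptors had a median of 36.5 with 1 of 59, and genes of other organs 37.5 with 1 of 24. Testis and oocyte genes had a median of 37.8 with 0 of 13, keratins and epidermal genes 39.4 with 4 of 49, and interleukins, chemokines and their receptors 40.6 with 3 of 118. Cell cycle genes had a median of 41.6 with 1 of 29 and histones 41.7 with 3 of 15. Solute carriers, a family spread over many tissues, had a median of 45.5, close to that of all genes. The dimmest members were Hoxd12 at 27.9 ± 9.1, Olfr146 at 24.0 ± 13.4, Sftpc of lung surfactant at 29.5 ± 5.0, Zp3 of the egg coat at 32.4 ± 10.8 and Il1f6 at 21.5 ± 8.9.

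Some members of these dim families were nevertheless bright. Hoxb8 ran from 69.6 to 98.7 with a median of 93.5 and was detected on all 12 arrays. Olfr155 ran from 44.97 to 96.0 with a median of 87.7, Krt14, a keratin of basal epidermis, lay at 75.2 ± 18.1 and Sprr1a, of the cornified cell envelope, at 80.3 ± 14.1. Csf2ra, a receptor subunit for the cytokine GM-CSF, lay at 82.3 ± 15.7. On the other print, Hoxb8 was at 87.7, Sprr1a at 91.2 and Csf2ra at 88.6, but Olfr155 at 46.0 and Krt14 at 44.8.

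By the rule used here no named spot was undetected throughout. Of 9066 named spots, 0 were at or below 0 on all 12 arrays, 2 were above 0 on 1 array, 19 on 2 and 122 on 3, and the median spot was above 0 on 8. Where all 3 scans had to be above 0, 26 spots were detected on no array, and where the listed local background had to be passed 678 were, so the number of undetected spots rests on the rule. The 2 spots seen on 1 array were Il1f6, an interleukin 1 family member, and Lipg, endothelial lipase, at 22.4 ± 9.5. Of 8726 genes, 138 (1.58%) were detected on 3 or fewer arrays, among them 5 of 118 interleukin and chemokine genes, 4 of 70 signalling genes and 2 of 59 chemosensory receptors. An intensity above 0 was common also where little transcript would be looked for: chemosensory receptor genes were above 0 on a median of 6 of 12 arrays. Per array, 10.9% to 91.9% of the spots without a single gene symbol were above 0, over nearly the same range as named spots.

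**Figure D3:**
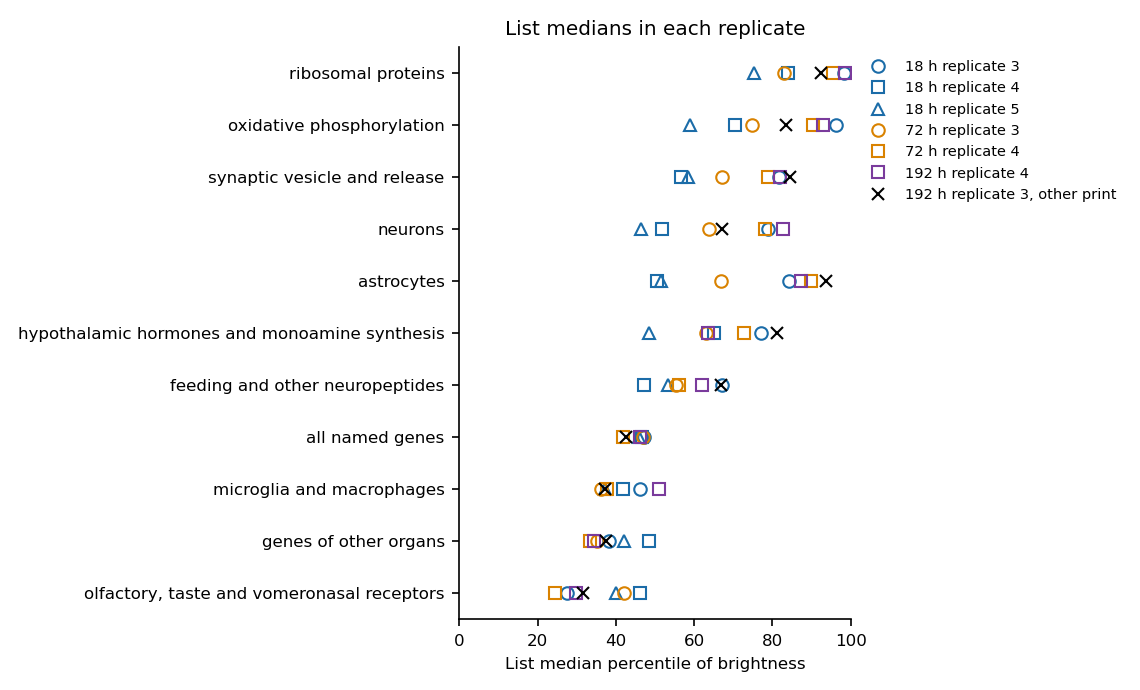
Median percentile (x axis) of 10 gene lists and of all named genes (y axis) in each of 6 replicates (open symbols) and in 192 h replicate 3 on another print (cross). Ribosomal and respiratory lists are to the right of all named genes in all 6 replicates, and the neuronal, synaptic and astrocyte lists lie closest to them in 18 h replicates 4 and 5.

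The order of the lists was read in each replicate. Ribosomal and respiratory lists had medians above that of all named genes in 6 of 6 replicates, with lowest values of 75.4 and 59.1. The neuronal list had medians of 78.9, 51.7 and 46.4 in 18 h replicates 3, 4 and 5, of 63.7 and 78.2 in 72 h replicates 3 and 4, and of 82.6 in the 192 h replicate. Astrocyte genes had medians of 84.2, 50.6, 51.6, 66.8, 89.7 and 87.3 in the same order. Both lists were lowest in 18 h replicates 4 and 5, where the Cy3 array is one of the 3 with poor agreement between scans and the Cy5 array had few spots above 0. Chemosensory receptors had their highest median, 46.1, in 18 h replicate 4, then 42.1 in 72 h replicate 3 and 40.0 in 18 h replicate 5. In the rest it was 24.4 to 29.8. Without the 3 arrays, the list medians were 94.4 for ribosomal, 86.2 for respiratory, 68.1 for neuronal and 33.5 for chemosensory genes.

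Upstream sequence was set beside the brightness lists, since the promoters of widely expressed genes are often rich in the dinucleotide CG. RefSeq sequence of build GRCm38.p6 gave the 250 bases before the annotated start for 6913 of 8726 named genes. That is 79.2%, too few for a comparison over all named genes, whose share is given only as a background, and only lists with at least 80% of members matched are given. At least 10 CG dinucleotides (CG reads the same on both strands) were found in 37.7% of 27025 RefSeq genes, in 72.4% of 29 matched ribosomal genes and in 76.7% of 43 respiratory genes. The share was 75% of the 704 matched genes of the top decile and 60.02% of the 6913 matched named genes, so the array's genes lie above the RefSeq share as a whole. They were found in 0 of 49 chemosensory receptor genes, 0 of 20 genes of other organs and 0 of 8 microglial genes. Hormone genes had 3 of 8 and the dim regional transcription factors 9 of 11, so the count did not run with brightness in every list. Below are the 250 bases, 5′ to 3′ on the gene's strand, of the brightest hormone gene, a bright respiratory gene, a bright ribosomal gene and the dimmest chemosensory receptor gene with a promoter in the table, with every CG in capitals. Oxt is read from chr2:130575919-130576168 on the plus strand and holds 4, Uqcrh from chr4:116075071-116075320 on the minus strand and holds 11, Rpl38 from chr11:114668330-114668579 on the plus strand and holds 8, and Olfr154 from chr2:85664456-85664705 on the minus strand and holds 0.
Oxt: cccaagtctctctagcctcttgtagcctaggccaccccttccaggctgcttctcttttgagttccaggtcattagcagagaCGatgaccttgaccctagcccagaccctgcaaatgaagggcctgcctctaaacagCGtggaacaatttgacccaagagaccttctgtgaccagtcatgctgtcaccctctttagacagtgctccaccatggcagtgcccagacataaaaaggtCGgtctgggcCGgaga
Uqcrh: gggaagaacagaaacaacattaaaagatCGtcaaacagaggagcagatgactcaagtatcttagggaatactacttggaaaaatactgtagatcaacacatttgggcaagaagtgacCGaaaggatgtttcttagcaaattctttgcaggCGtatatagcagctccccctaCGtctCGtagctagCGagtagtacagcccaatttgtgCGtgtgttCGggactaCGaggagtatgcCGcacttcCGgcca
Rpl38: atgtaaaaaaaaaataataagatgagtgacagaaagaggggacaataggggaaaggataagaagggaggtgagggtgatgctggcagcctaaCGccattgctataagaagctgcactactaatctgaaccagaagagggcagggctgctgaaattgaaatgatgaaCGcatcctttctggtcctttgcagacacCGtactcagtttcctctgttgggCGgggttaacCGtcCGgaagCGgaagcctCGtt
Olfr154: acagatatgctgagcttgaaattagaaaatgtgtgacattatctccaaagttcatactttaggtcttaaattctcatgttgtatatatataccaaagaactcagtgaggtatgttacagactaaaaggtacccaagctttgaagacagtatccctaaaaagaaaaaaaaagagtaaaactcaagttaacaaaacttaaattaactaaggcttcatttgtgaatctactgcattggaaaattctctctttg
Oxt was as bright as Rpl38 with fewer CG, and Olfr154 lay at 27.1 ± 13.8. The motif TATAAA (either strand, so TTTATA on the other) was in 12.9% of all RefSeq genes, in 9.39% of the matched named genes, in 5.82% of those in the top decile, in 3.45% of the ribosomal genes, in 9.30% of the respiratory genes and in 30.6% of the chemosensory genes. It was absent as those letters from all 4 windows shown.

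Spots listed for the same target sequences were printed at other positions on another print, on which 192 h replicate 3 was hybridised as total RNA on 2 arrays. Across 8726 genes the percentiles there and on the 12 arrays had a rank correlation of 0.607, and 0.378% of genes had the same position. Whether both prints share the oligonucleotides was not tested, and where they do, agreement can come from them as well as from the RNA. Of the 873 genes in the top decile, 453 (51.9%) were also in the top decile there, which holds 10% of genes and begins at 88.3. Of the 20 brightest genes 17 were, the exceptions being Cox5b at 80.5, Cox6b1 at 86.3 and 4930529I22Rik at 83.4. Ribosomal genes had 24 of 36 in that decile, respiratory genes 22 of 52, astrocyte genes 6 of 8, synaptic genes 6 of 18 and chemosensory receptors 0 of 59.

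**Figure D4:**
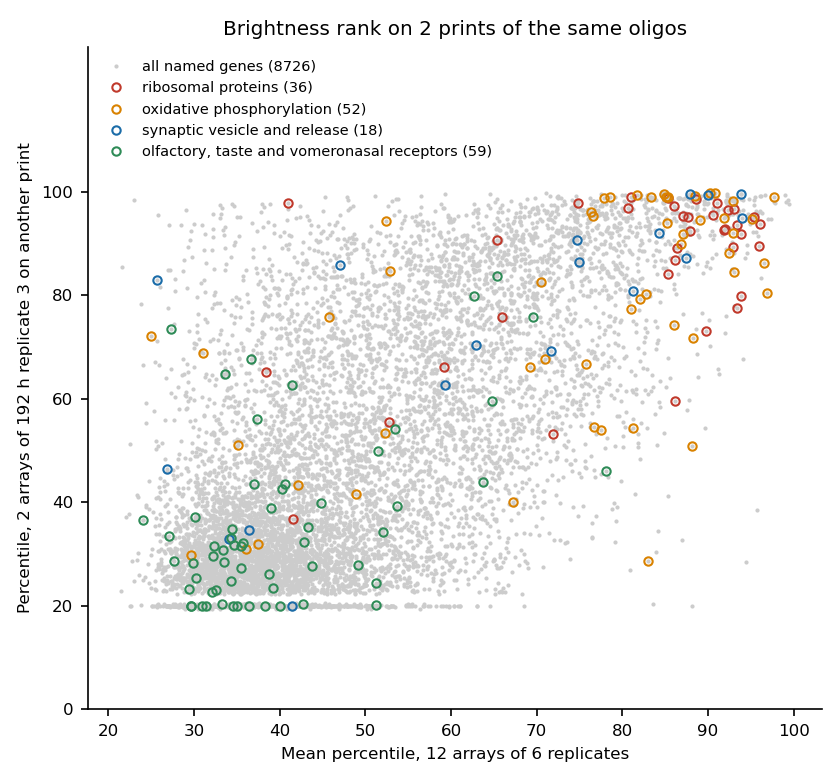
Mean percentile over 12 arrays (x axis) against percentile on 2 arrays of another print (y axis) for 8726 genes (grey), with 4 lists in colour. Ribosomal and respiratory genes gather at the upper right and chemosensory receptors at the lower left, with members of each list scattered away from the diagonal.

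Some dim genes were bright on the other print, which differs from the 12 arrays in both spot and RNA sample. Below the overall median on the 12 arrays but in the top decile of the other print were 74 genes. Of the genes named above, Fau was at 97.9 there, Mt3 at 96.5, Psma4 at 93.5 and Ugt8a at 90.8. Nsf and Olig1, at 83.0 and 87.4, were also far brighter there but below that decile. The reverse, in the top decile here and below the median there, held for 25 genes, with Hspb2 at 28.5 on the other print. Of the 9 hormone and monoamine genes, 5 lay above the median of that print. Avp was at 96.6, Oxt and Sst at 91.5, Gnrh1 at 81.6 and Hdc at 81.1, while Ghrh was at 33.4, Th at 31.0, Trh at 29.7 and Ddc at 26.2. Among the other peptide genes Tac1 was at 97.4 and Ucn at 92.8. A dim spot on 1 print therefore does not show that the transcript was scarce.

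Genes spotted more than once gave a second view of this. Over 322 genes with several spots, the median gap between the brightest and dimmest spot was 12.7 points, and it was at most 10 in 136. The 3 spots of Actb lay from 91.8 to 97.4, the 3 of Hprt from 80.9 to 87.9 and the 3 of Ywhaz from 83.0 to 90.7. Wider apart were the 3 of Gapdh, from 51.6 to 76.8, and the 3 of Caml, from 31.0 to 59.7. Rgs5 had spots at 28.9 and 50.6. For 62 accessions spotted more than once, the rank correlation between 2 spots was 0.348, and the median gap was 10.5 points. The widest gaps were in Ddx3x, an RNA helicase, with spots at 28.6 and 89.7, in Zfhx3, a transcription factor, with 32.9 and 87.0, and in Mcoln1, a lysosomal channel, with 37.3 and 91.3. The spots of Zfhx3 and of Mcoln1 were designed to different accessions, while both Ddx3x spots list the same one.

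PBS RNA selected as poly(A) was hybridised on other arrays of the series, 2 of which are used here. The array of 192 h replicate 1, printed at the same positions, had a rank correlation of 0.550 with the 12 arrays. That of 72 h replicate 1, of the print with other positions, had one of 0.153. On the first, list medians were 91.8 for ribosomal, 88.4 for respiratory, 92.5 for astrocyte and 90.6 for granule genes, against 47.1 over all named genes. On the second they were 73.2, 62.6, 69.2 and 61.9, against 44.0. With 1 array each, the RNA preparation, the print and the array cannot be told apart.

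Brightness in control tissue was compared between the times after injection. No spot of 194 passed at any contrast (0.0% called; limma with Benjamini-Hochberg adjustment over 194 spots detected on all 12 arrays and with an unsaturated value on each). Values are log2 intensities centred within each scan. At an unadjusted p under 0.05 there were 0 spots for 72 against 18 h, 1 for 192 against 18 h and 1 for 192 against 72 h. That spot was Atp6ap2, an accessory protein of the vacuolar proton pump, in both cases. Its 18 h values were 1.57, 0.93 and -0.66, its 72 h values 0.47 and 2.28, and its 192 h value 3.90. The 192 h value lay above the other 5. The difference was 3.28 ± 1.06 (SE) for 192 against 18 h (limma adjusted p = 0.987) and 2.52 ± 1.13 for 192 against 72 h (limma adjusted p = 0.994).

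The other spots of smallest p are named to show the size that the spread allows. For 192 against 18 h they were the 2 spots of Ywhaz, a 14-3-3 protein, that entered the test, with differences of 2.06 and 1.97, Septin7, a filament-forming GTPase, with 2.28 and Nisch with 1.89. For 192 against 72 h they were Septin7 with 2.36, Ssr3 with -1.69, Rpl8 with 1.68 and Uqcrh with -1.50. For 72 against 18 h they were Ndufaf5, an assembly factor of complex I, with -1.36, Calr, calreticulin, with 1.08, a spot of Ywhaz with 1.06, Ndufs3 with 0.99 and Nrbp1 with 0.88, at a limma adjusted p of 0.998. Several of these gaps exceed a log2 difference of 1 without passing. In data simulated with the spread of these replicates, 0 of 19 spots changed by a log2 of 1 and 36.8% of 19 changed by 2 passed for 72 against 18 h. Changes of a log2 of 1 were thus not detectable there and changes of 2 only in part, and the contrasts with the single 192 h replicate were not simulated.

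The dye in which the PBS RNA was labelled was compared within each replicate. Between Cy5 and Cy3, 2 of 194 spots passed (1.03%; limma on 6 paired differences, Benjamini-Hochberg adjusted). Rbm33, an RNA-binding protein, was dimmer in Cy5 in 6 of 6 replicates. Its Cy5 minus Cy3 differences ran from -3.63 to -0.98, with a mean of -2.48 ± 0.43 (SE, n = 6, limma adjusted p = 0.0101). The astrocyte gene Ndrg2 was brighter in Cy5 in 6 of 6, with differences from 0.85 to 3.66 and a mean of 1.86 ± 0.40 (limma adjusted p = 0.0411). The next 3 by p did not pass: Tagln2 at -1.30 ± 0.41, Atp5a1 at 1.07 ± 0.34 and Reep5 at 1.13 ± 0.37, each with 6 of 6 replicates on one side (limma adjusted p = 0.338). Unadjusted p was under 0.05 for 19 spots. Without 72 h replicate 3, 0 of 199 spots passed (smallest limma adjusted p = 0.108), and without the 3 replicates whose Cy3 arrays had poor scan agreement 0 of 206 passed (smallest limma adjusted p = 0.0893). Leaving out any other single replicate left 1 to 3 calls. Each percentile above averages both dyes.

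**Figure D5:**
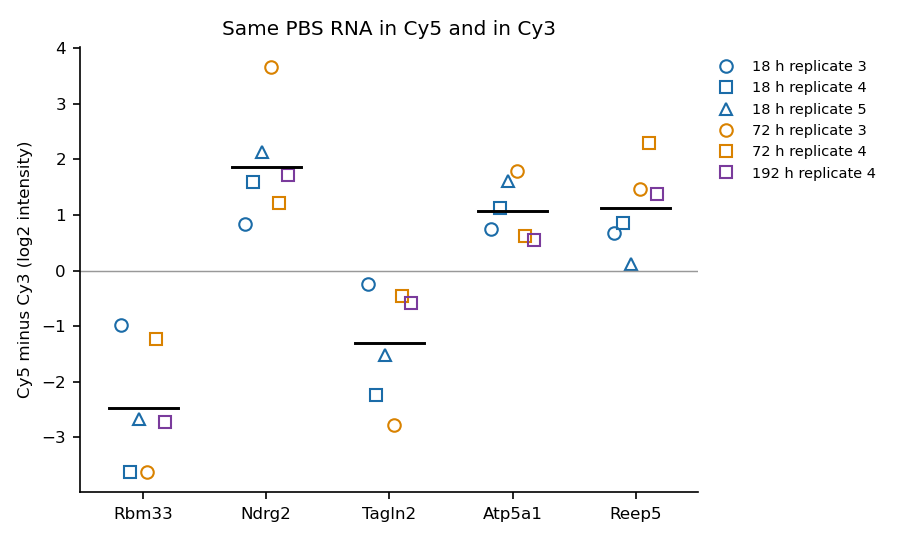
Cy5 minus Cy3 difference in log2 intensity of the PBS channel (y axis) for the 5 spots of smallest p (x axis), with 6 replicates as open symbols and the mean as a bar. All 6 replicates of Rbm33 and Tagln2 lie below 0, and all 6 of Ndrg2, Atp5a1 and Reep5 above 0.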

How the data were processed

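Hypothalamus RNA of PBS-injected mice was measured on 2-colour oligonucleotide arrays; of 29 arrays, the PBS channel of 12 is described and 4 arrays of other prints are set beside them. Spot intensities are, per the file headers, already corrected for local background by the authors. The deposited saturation factor is a fraction between 0 and 1. The authors' deposited value tables, treated as a score, served only to check the order of spots (Pearson correlation 0.303 to 0.728 with log ratios in grid order). The scanner settings are not given in the labels. That channel A is Cy3 and B is Cy5 is assumed from the order of the labels.

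Spots marked as not measured were left out; values at or below 0 shared the lowest rank. Percentiles were computed in Python 3.11.15 with pandas 2.3.3. For tests, log2 intensities without partly saturated spots were centred per scan, averaged, quantile normalized over the spots tested and fitted with limma 3.58.1 in R 4.3.3 (empirical Bayes, two-sided, threshold 0.05). The fits were tested on simulated data. p-values measure the spread between these replicates. The single 192 h replicate borrows its spread from the other times.

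Gene symbols are those of the platform annotation, of which 8977 of 9066 spots matched a RefSeq gene. The members and the 38 gene lists were chosen with earlier results of these data known. Named genes are the 20 brightest genes detected on all arrays with an SD under 10 points, the 5 steadiest near percentile 50, members from the 4 highest and 2 lowest of a list, the spots of smallest p in a contrast and the 3 genes whose spots differ most. The markers of the hypothalamus are all named too. Other genes named for their value on the other print or for repeated spots were chosen after their values were seen. Alternatives were single scans, single dyes, saturated spots, spot averaging, detection rules, normalization and leaving out replicates or, chosen after seeing the data, 3 arrays. Precision is limited by the number of arrays.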

Additional observations from a re-analysis of the deposited data

Results flagged for a closer look

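Dixon's test sets 1 replicate apart in about 1 in 20 genes by chance where values are normally distributed. Percentiles have an upper limit, and many of the genes tested were named for being bright, which favours low outliers. The genes also share the same arrays. The share of genes set apart therefore cannot be compared with that rate. Of 243 genes named or listed, 32 (13.2%) had 1 replicate whose percentile stood apart from the other 5 by this test. In 18 h replicate 4 they were Gnb1 at 52.5, Pcsk1n at 36.2, Prkacb at 46.4, Prkar1b at 62.3, Psmb3 at 23.4, Psmd4 at 32.8, Srxn1 at 97.2 and Syp at 60.0, each lower than in the rest. S100a8 at 51.1 and S100a9 at 68.9, calcium-binding proteins of neutrophils, were higher there than in the rest. In 18 h replicate 5 Ldhb at 52.7, Olfr148 at 28.2 and Slc25a1 at 44.2 were lower. In 18 h replicate 3 Fau at 97.4 and Slc2a3 at 85.3, a glucose transporter of neurons, were higher.

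In 72 h replicate 3 the low values were those of Cox6b1 at 87.7, Nudt11 at 41.6, Oxt at 85.8, Rpl38 at 82.6, Stmn3 at 72.7 and Tmsb4x at 80.4. In 72 h replicate 4 they were those of Cacna1i at 83.5, Dclre1a at 91.6, Gpr137c at 92.4, Kcns1 at 61.2, Nap1l5 at 88.7, Napb at 83.3, Rps15 at 79.8 and Rps20 at 77.5. In the 192 h replicate they were those of Kif17 at 12.5, Mcm9 at 12.5 and Uqcrh at 93.2. The median over all named genes was also lowest in 72 h replicate 4, at 41.7, and on its Cy5 array 31.0% of spots are marked as not measured.

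Spots without a single gene symbol carried signal too: 94 of 1014 (9.27%) lay in the top decile of named spots, from percentile 73.0 upwards, and their median percentile was 42.7.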

How the results depend on the processing

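Of the 873 genes in the top decile, 659 to 863 stayed in it under 15 alternatives, with 659 for PBS in Cy3 alone, 739 in Cy5 alone and 747 without the 3 arrays whose scans agreed least, which was chosen after seeing the data. Leaving out 1 replicate kept 746 to 806. Spots detected on every array numbered 266, but 463 when 1 scan above 0 sufficed, 134 when all 3 were needed and 44 when the listed local background had to be passed. Leaving out 1 replicate gave 273 to 800, with 583 without 18 h replicate 4 and 800 without 18 h replicate 5. The hormone list median was 81.1 on the other print, against 68.5, and 14 of 38 list medians differed there from the 12 arrays by over 1 SD of their replicate medians. The largest moves were in oligodendrocyte genes (53.5 to 83.4), astrocyte genes (67.1 to 93.7) and pituitary genes (41.9 to 67.3). For the 8 lists recomputed on these 12 arrays, each alternative moved the median by less than that SD. Dye calls numbered 1 with median centring and 4 over all spots with a value in all 6 pairs. They numbered 0 to 3 on leaving out 1 replicate and 0 without the 3 replicates of those arrays, which was added after seeing the data. No time contrast had a call in 34 alternative fits (limma, smallest adjusted p 0.166). A replicate block gave 0 calls in all 3 contrasts. With 2 replicates at 72 h their deviations are mirror images, so the correlations of same-numbered samples (-0.57 and -0.41) cannot show whether the numbers pair samples, and nothing in the labels does. Of 6015 percentiles recomputed for 401 genes, 43 moved by over 1 SD. Signal near background limits the order of dim spots.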
